A study of Mus musculus with 4 samples.

Results

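The ovarian hormone receptors and the luminal genes that work with them or respond to them were examined as 10 genes of the 18952 genes named on the array. They are grouped by known function, with earlier results of these data known when they were chosen: the receptors Esr1 and Pgr, the oestrogen target Greb1, the luminal transcription regulators Foxa1, Gata3, Tbx3 and Cited1, and the secreted signals Calca, Tnfsf11 and Wnt4. The files hold 13 probes for them, and all 13 were tested. Where a gene has more than 1 probe, the brightest stands for it and the other is given beside it.

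RNA from mouse mammary glands was measured on 4 Agilent arrays in a single colour, 1 array per sample. All mice were 13-week-old females carrying the Δ16HER2 transgene, and the glands are labelled pre-neoplastic. The WT group (n = 2) is labelled wild type and the STM KO group (n = 2), called KO here, as knocked out for stathmin, so the comparison asks what loss of stathmin, a microtubule-destabilising protein encoded by Stmn1, did to a gland that carries the oncogene. No mice without the transgene were analysed here. The labels name neither the promoter of the transgene nor the stage of the oestrous cycle, and they do not say whether an array held 1 mouse or a pool. They also do not say that samples of a group were separate animals, so the tests measure the spread between these samples, which may be technical. Both WT arrays came before both KO arrays on the slide, so an effect of position on the slide and one of genotype cannot be told apart.

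In the mammary gland, oestrogen and progesterone act on a minority of luminal cells that carry their receptors. The oestrogen receptor switches on the progesterone receptor, and those hormone-sensing cells then release paracrine signals, among them RANKL (Tnfsf11), WNT4 and, in rodents, the calcitonin gene products (Calca), which reach neighbouring cells that lack the receptors. FOXA1 opens chromatin for the oestrogen receptor, and GATA3 is needed for the luminal lineage. The levels of the progesterone-driven signals follow the oestrous cycle in adult females.

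Levels are log2 of the processed signal relative to the 75th percentile of the same array, so 1 unit is a 2-fold difference. Differences between groups are KO minus WT, with the standard error (SE) of the limma fit over n = 2 and 2 arrays. Adjusted p-values are Benjamini-Hochberg values over all 24188 tested probes. The processed signal at the 75th percentile was 191 on WT 1, 144 on WT 2, 292 on KO 1 and 160 on KO 2. Between 54.7% and 66.2% of spots were well above background on each array, no spot was saturated, and levels correlated between arrays at r from 0.963 to 0.975 across tested probes.

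Stmn1, the gene labelled as knocked out, was read by a pair of probes. The brighter had processed signals of 9222 and 1740 on WT 1 and WT 2 and of 6865 and 1621 on KO 1 and KO 2, so its groups overlapped and it did not separate the genotypes (-0.64 ± 0.76, adjusted p = 0.938). The dimmer probe read 87.6 and 13.8 in WT and 5.57 and 4.84 in KO, and was well above background on WT 1 alone. Its WT mean, which includes the dim WT 2 reading, was 4.88-fold above the lowest signals well above background on the KO arrays. Some readings above such a lowest signal are still not well above background, so this value is not a strict bound. How the gene was knocked out, and which part of it was altered, is not given in the sources used here. Whether the bright probe lies outside that part was not tested.

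None of the 10 genes passed an adjusted p of 0.05 between KO and WT, where the whole array gave 0% (0 of 24188 probes; 254 higher and 641 lower in KO had an unadjusted limma p under 0.05). The largest difference between group means was that of Gata3, which was 1.85-fold lower in KO. By contrast, Calca differed 65.9-fold between the WT arrays and 33.9-fold between the KO arrays. Tnfsf11 on WT 1 was 4.16-fold above the lowest level well above background on WT 2, where it was not well above background itself. For 8 of the 10 genes a difference inside a group was larger than the difference between the group means, against 78.7% of tested probes. Foxa1 and Gata3 were the exceptions.

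**Figure D1:**
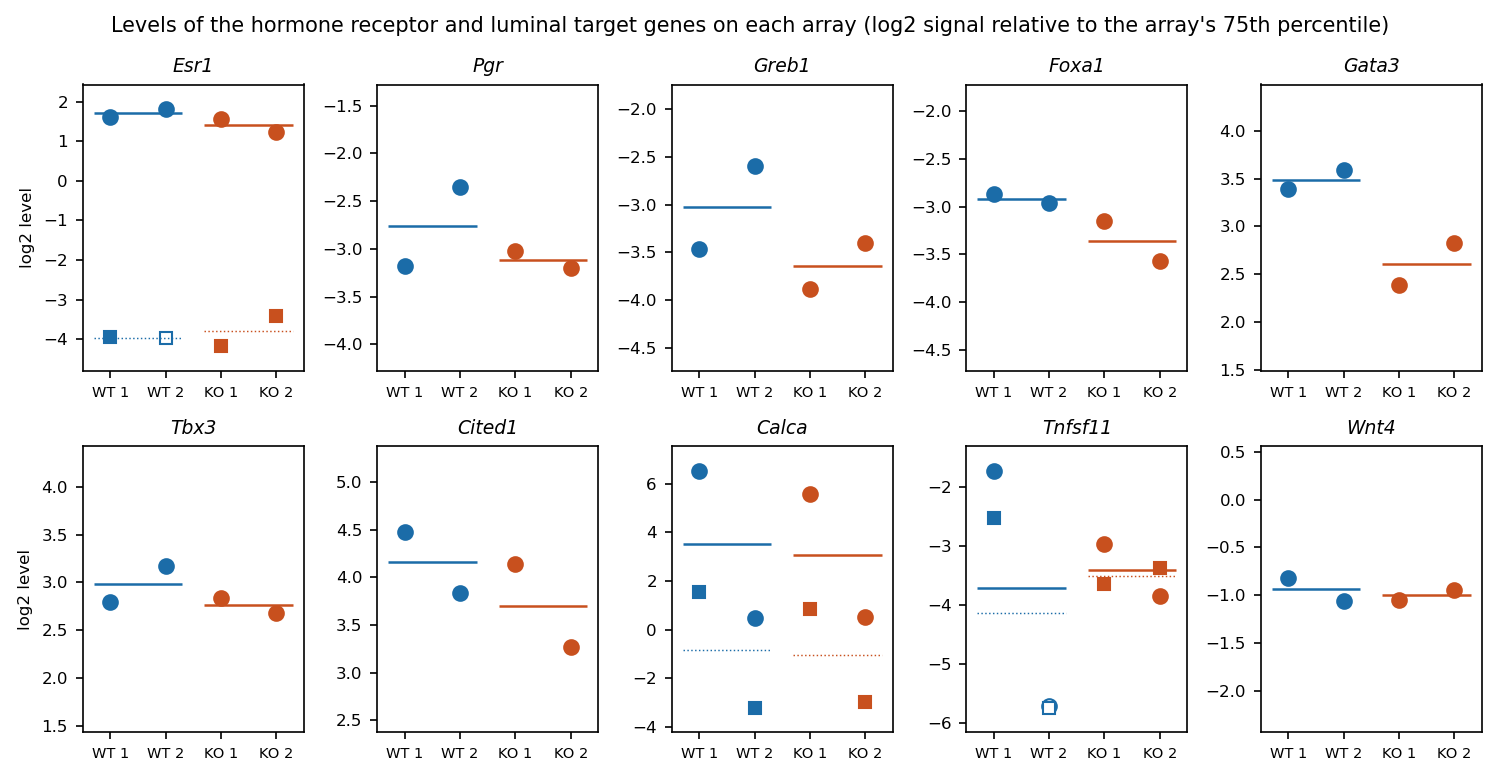
Level of each of the 10 genes on each array, as log2 signal relative to the 75th percentile of the array; circles are the brightest probe, squares the second probe, open symbols spots not well above background, and lines the mean of the 2 arrays of a group (dotted for the second probe). Vertical scales differ between panels. Gata3 lies lower on both KO arrays (2.38 and 2.82) than on both WT arrays (3.39 and 3.59), while Calca is high on WT 1 and KO 1 and low on WT 2 and KO 2.

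Esr1 encodes the oestrogen receptor alpha. Its brighter probe, spotted 10 times on each array, had levels of 1.62 and 1.80 on WT 1 and WT 2 and of 1.56 and 1.24 on KO 1 and KO 2. Both KO arrays lay below both WT arrays, and the difference of -0.31 ± 0.26 did not pass the test (adjusted p = 0.935). The repeat spots varied more on the KO arrays, with an SD of 0.440 on KO 1 and 0.398 on KO 2 against 0.185 on WT 1 and 0.229 on WT 2. On KO 1 a single spot could be as low as 0.36 while the highest read 1.86. With the median of the spots in place of their mean, an alternative chosen after seeing the data, the levels were 1.62, 1.79, 1.68 and 1.36, the groups overlapped and the difference was -0.19. The second Esr1 probe was dim, at -3.95 and -3.97 in WT and -4.17 and -3.41 in KO, was not well above background on WT 2, and differed by 0.17 ± 0.33.

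Pgr encodes the progesterone receptor and is itself induced by oestrogen. It was dim in these glands, with processed signals between 17.4 and 36.0. Its levels were -3.18 and -2.35 in WT and -3.02 and -3.20 in KO. WT 2 stood above the other arrays, the groups overlapped, and the difference was -0.35 ± 0.35 (adjusted p = 0.935). The difference between the WT arrays, -0.83, was larger than that between the groups.

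Greb1 is a direct target and cofactor of the oestrogen receptor. Its levels were -3.46 and -2.60 in WT and -3.89 and -3.40 in KO. As for Pgr, WT 2 was the highest array, and KO 1 was the lowest. The groups overlapped narrowly, since KO 2 lay just above WT 1, and the difference was -0.62 ± 0.39 (adjusted p = 0.935). Esr1, Pgr and Greb1 thus were all highest on WT 2, but so were Gata3 (3.59) and Tbx3 (3.17).

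Foxa1 encodes the pioneer factor that opens chromatin for the oestrogen receptor. Its levels were -2.87 and -2.97 in WT and -3.15 and -3.57 in KO. Both KO arrays lay below both WT arrays, with a difference of -0.44 ± 0.27 (adjusted p = 0.935), and the difference inside KO was 0.42. The groups of Foxa1 overlapped with quantile normalization, with median scaling, with normexp, relative to the luminal genes and in the authors' deposited table.

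Gata3 encodes the factor that specifies and maintains luminal cells. It had levels of 3.39 and 3.59 on WT 1 and WT 2 and of 2.38 and 2.82 on KO 1 and KO 2, with processed signals of 2008 and 1740 in WT and of 1520 and 1133 in KO. The groups stood apart, by more than either pair of arrays differed inside its group (-0.20 in WT and -0.44 in KO). The difference was -0.89 ± 0.28, with a 95% interval from -1.59 to -0.18. Gata3 was the only one of the 10 genes with an unadjusted limma p under 0.05, which 2.65% of tested probes reached with lower levels in KO; none of the 10 reached it with higher levels, which 1.05% of probes did. After adjustment its p was 0.935. Gata3 is also expressed by T cells, and the T cell markers were high on KO 2, where Gata3 (2.82) was above its level on KO 1 (2.38); their part in its values was not tested.

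Tbx3 encodes a T-box regulator of the mammary placode and of hormone-sensing cells. Its levels were 2.79 and 3.17 in WT and 2.84 and 2.68 in KO. The groups overlapped, and the difference was -0.22 ± 0.27 (adjusted p = 0.938). Cited1 encodes a transcriptional co-regulator that enhances the response of luminal cells to oestrogen. It read 4.48 and 3.84 in WT and 4.13 and 3.27 in KO. The first array of each group was the higher, by 0.64 in WT and 0.86 in KO, and the difference between groups was -0.45 ± 0.41 (adjusted p = 0.935).

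Both KO arrays lay below both WT arrays for 3 of the 10 genes (Esr1, Foxa1 and Gata3), against 19% of all tested probes. None of the genes had both KO arrays above both WT arrays, against 15.5% of probes. The fold change was negative for 9 of the 10 genes, against 54.6% of probes, and the median over the genes was -0.39 against -0.04 over all tested probes. That median depended on the scale. With each array centred on its median instead, it was -0.22 while the median of all probes moved to 0.13. Relative to 10 other luminal epithelial genes it was -0.06 with the median of all probes at 0.29. Both scales move all probes of an array alike, so the median of the genes lay equally far below that of all probes each time.

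**Figure D2:**
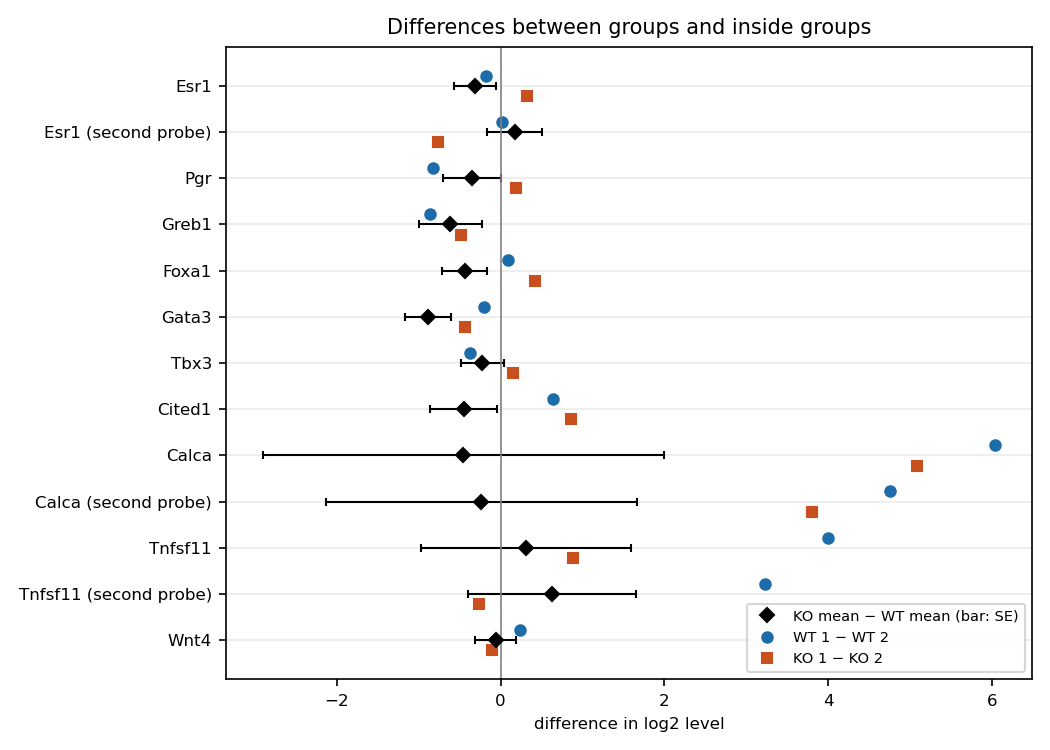
Difference in log2 level for each of the 13 probes: black diamonds are KO minus WT with the SE of the limma fit, circles WT 1 minus WT 2, squares KO 1 minus KO 2. For Calca and Tnfsf11 the circles lie far to the right of the diamonds (6.04 for the brightest Calca probe). The Tnfsf11 circles use a WT 2 reading not well above background, so their position is uncertain. For its brightest probe, WT 1 was 4.16-fold above the lowest level well above background on WT 2. Gata3 has the diamond farthest to the left (-0.89).

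Calca encodes calcitonin and the calcitonin gene-related peptide, CGRP, by alternative splicing. Its brightest probe read processed signals of 17726 on WT 1, 203 on WT 2, 14126 on KO 1 and 229 on KO 2, which are levels of 6.53, 0.49, 5.60 and 0.52. Every array read it well above background. One array of each genotype was thus high and the other low, so the groups overlapped, and the difference between the genotypes was -0.45 ± 2.45 (adjusted p = 0.985). The 95% interval of that difference ran from -6.65 to 5.75. Leaving out 1 array turned its sign: it was 2.57 without WT 1, -3.48 without WT 2, -2.99 without KO 1 and 2.09 without KO 2.

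The second Calca probe, designed to another transcript of the gene, followed the same order. It read signals of 565 and 15.7 in WT and 526 and 20.6 in KO, a 27.1-fold difference inside WT and a 14.0-fold difference inside KO. Its difference between the groups was -0.23 ± 1.90 (adjusted p = 0.991). Only 2 of 24184 probes (0.00827%) differed at least 10-fold inside both groups with WT 1 and KO 1 higher, and they were the Calca probes. The 10-fold limit was chosen after their values were seen. Ranked by size, the difference of the brightest Calca probe was number 3 inside WT and number 16 inside KO.

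Tnfsf11 encodes RANKL, which progesterone induces in hormone-sensing cells and which drives the growth of their neighbours. Its brightest probe had signals of 58.0 on WT 1, 2.75 on WT 2, 37.4 on KO 1 and 11.1 on KO 2 (levels of -1.72, -5.71, -2.96 and -3.85), and was not well above background on WT 2. WT 1 was 4.16-fold above the lowest level well above background on WT 2, and KO 1 was 1.85-fold above KO 2. The first value is not a strict bound on the difference inside WT. The groups overlapped, and the difference was 0.31 ± 1.28 (adjusted p = 0.981). The second probe gave levels of -2.52 and -5.74 in WT and of -3.64 and -3.38 in KO. It placed WT 1 above WT 2 as well (2.39-fold above the same lowest level) but did not place KO 1 above KO 2. The order of the KO arrays for this gene was therefore not the same on its probes. The differences between groups use the WT 2 reading as it stands, not well above background. The difference was -1.68 without WT 2 and -0.13 without KO 1, so its sign turned when either array was left out. RANKL is also made by lymph node stroma and T cells. The summed levels of both marker lists were high on KO 2, although the stroma gene Ltbr was lowest there. The part of these cells in the KO values of Tnfsf11 was not tested.

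Wnt4 encodes a WNT ligand that acts downstream of progesterone in side branching. Its levels were -0.82 and -1.06 in WT and -1.05 and -0.94 in KO. All 4 arrays lay close together, the groups overlapped, and the difference was -0.06 ± 0.25 (95% interval from -0.69 to 0.57, adjusted p = 0.981). Wnt4 lies on chromosome 4, as does Stmn1, with 80 RefSeq genes between them (49 of them protein coding). Inside the groups it differed by 0.24 in WT and -0.11 in KO, against 6.04 and 5.08 for Calca.

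The sequences before the start of these signal genes are given as description, and their part in the levels on the arrays was not tested. RefSeq promoter windows (assembly GRCm38.p6) were found for 9 of the 10 genes, as 13 windows; Tbx3 was not matched. The 250 bases before each start were searched on both strands for the full oestrogen receptor element (GGTCA and TGACC with 3 bases between them), the full progesterone receptor element (GNACA and TGTNC with 3 bases between them), the half-elements GGTCA and TGTTCT, the GATA motif AGATAA, the FOXA motif TGTTTAC and the TATA motif TATAA. The half-element GGTCA is part of the full oestrogen element, and the motifs can overlap. Matches are in capitals, and the Tnfsf11 and Wnt4 windows are the whole 250 bases, 5′ to 3′ on the strand of the gene.
Tnfsf11, chr14:78308044-78308293, minus strand: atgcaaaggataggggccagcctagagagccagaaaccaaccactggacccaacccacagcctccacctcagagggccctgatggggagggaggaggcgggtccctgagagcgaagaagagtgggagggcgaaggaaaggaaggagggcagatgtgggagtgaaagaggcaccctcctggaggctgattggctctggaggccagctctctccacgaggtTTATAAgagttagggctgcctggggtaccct
Wnt4, chr4:137277385-137277634, plus strand: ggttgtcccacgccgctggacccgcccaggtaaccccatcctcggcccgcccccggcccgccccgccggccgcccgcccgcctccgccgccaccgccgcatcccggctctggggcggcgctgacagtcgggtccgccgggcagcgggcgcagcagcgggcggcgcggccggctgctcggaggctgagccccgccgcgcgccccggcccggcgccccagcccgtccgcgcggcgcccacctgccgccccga
Calca, 130 to 126 bases before its start: cacttccaccaaTGACCtcaatttaaattc
Calca, 218 to 213 bases before its start: aagagatgaaatTTATCTtgatgtcaaaag

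The Tnfsf11 window, 60.4% G and C, held a TATA motif on both strands 31 to 26 bases before the start. The Wnt4 window, 85.2% G and C, held none of the motifs searched. The Calca window (chr7:114636358-114636607, minus strand, 48% G and C) held a half-element for the oestrogen receptor on the opposite strand and a GATA motif on the opposite strand. No window of these 9 genes held a full oestrogen element (0.0639% of 32851 promoters do), a full progesterone element (0.387%) or the half-element TGTTCT (16.1%). The half-element GGTCA was in 7 of the 13 windows, those of 5 genes (Calca, Cited1, Foxa1, Gata3 and Greb1), against 35.2% of promoters. TATAA was in 5 of the 13 windows, those of 4 genes (Cited1, Foxa1, Pgr and Tnfsf11), against 22.8%. AGATAA was in that of Calca (9.99% of promoters) and TGTTTAC in that of Foxa1 (3.17%). These matches describe letters in a short window and do not show binding.

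Inside the groups, 2 of the 10 genes differed at least 2-fold (Calca and Tnfsf11), against 16.4% of probes. Both were higher on WT 1 than on WT 2, a direction and size reached by 3.52% of probes. Calca alone was also at least 2-fold higher on KO 1 than on KO 2, reached by 2.39% of probes, and 0.633% of probes reached it inside both groups. None of the 10 genes was at least 2-fold higher on the second array, which 2.77% of probes were inside WT and 9.11% inside KO. The median size of the differences inside WT was 0.51 over the 10 genes and 0.26 over all tested probes; inside KO it was 0.43 and 0.37. With 1 array against 1 array these differences have no replicate check.

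**Figure D3:**
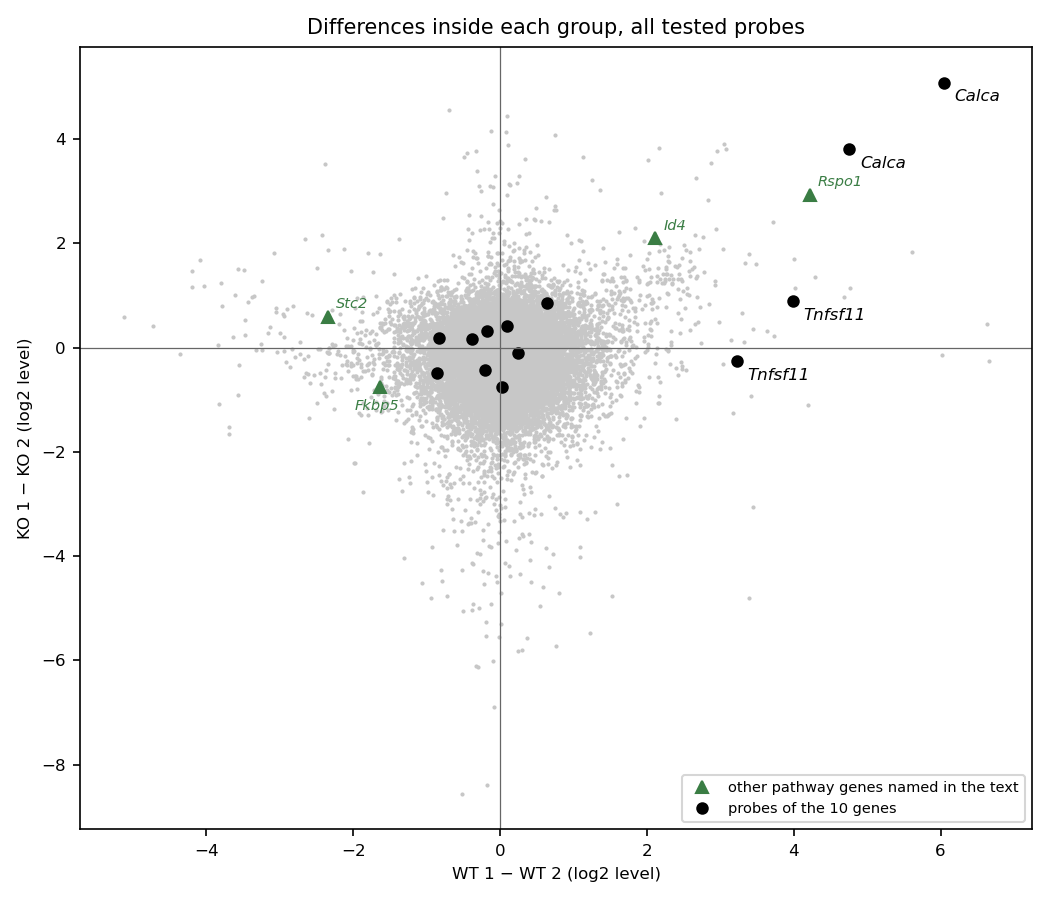
WT 1 minus WT 2 (horizontal) against KO 1 minus KO 2 (vertical), in log2 level, for all tested probes (grey), the 13 probes of the 10 genes (black circles) and other pathway genes named in the text (green triangles). Both Calca probes lie at the upper right edge (6.04 and 5.08 for the brightest), with Rspo1 (4.22 and 2.93) and Id4 (2.11 and 2.10) on the same side, while the Tnfsf11 probes lie to the right near the horizontal axis, at a WT 2 reading not well above background.

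The other genes of the pathway were taken from lists of known function. Of all tested probes, 54.6% had a negative fold change. Both KO arrays lay below both WT arrays for 19% and above them for 15.5%. An unadjusted limma p under 0.05 was reached by 2.65% with lower and 1.05% with higher levels in KO. Among 11 tested of 13 further steroid, orphan and membrane receptors (Esr2 and Nr2f1 were not well above background on any array), none passed the adjusted test, 6 fold changes were positive and 5 negative, and the median was 0.01. The mineralocorticoid receptor Nr3c2 was lower on both KO arrays (-0.99 ± 0.53), although it was not well above background on KO 1. The orphan receptor Esrrb was also lower on both (-0.77 ± 0.36), and the membrane oestrogen receptor Gper1 was higher on both (0.37 ± 0.25). The vitamin D receptor Vdr differed by 1.08 inside WT and 0.57 inside KO, with the first array higher.

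Of 18 coactivators, corepressors and chaperones of the receptors, 17 were tested and none passed, with 10 positive and 7 negative fold changes and a median of 0.08. Both KO arrays lay above both WT arrays for 5 of them, against 15.5% of all tested probes, the largest being the Mediator subunit Med1 (0.49 ± 0.26; its other tested probes gave -0.08 and 0.06) and the co-chaperone Fkbp4 (0.46 ± 0.28; second probe 0.25). The coactivator Ncoa3 lay lower in KO (-0.41 ± 0.25), but its second probe overlapped (-0.14). Nrip1, a corepressor that oestrogen induces, differed by -0.90 inside WT and -0.32 inside KO, and the coactivator Ncoa2 by 0.47 and 0.56 (by 0.06 and -0.83, and by 0.09 and -1.01, on its other probes).

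Of 21 further oestrogen-response genes, 15 were tested and none passed, with 6 positive and 9 negative fold changes and a median of -0.09. The trefoil peptide Tff3 had levels of -2.23 and -2.79 in WT and -3.99 and -3.18 in KO (-1.07 ± 0.38; adjusted p = 0.935) and was the only one with an unadjusted p under 0.05. Celsr2 (-0.57 ± 0.35; its other probes overlapped, at -0.09 and -0.24) and Igfbp4 (-0.23 ± 0.26; second probe -0.38), which encodes a binding protein for insulin-like growth factors, also lay lower on both KO arrays. Stc2, a secreted glycoprotein, differed by -2.34 inside WT, where WT 2 was the higher, and by 0.59 inside KO, where KO 1 was the higher. Susd3 differed by 0.20 inside WT and -2.20 inside KO.

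Of 9 further progesterone and steroid-response genes, 7 were tested and none passed, with 3 positive and 4 negative fold changes and a median of -0.24. The kinase gene Sgk1 (-0.55 ± 0.25) and the steroid-responsive factor Klf9 (-0.24 ± 0.25; second probe -0.08) lay lower on both KO arrays. Id4, a helix-loop-helix inhibitor needed for growth of the mammary ducts, had processed signals of 414 and 72.3 in WT and 629 and 80.7 in KO, differences of 2.11 and 2.10 on the log2 scale. It was high on the first array of each group, as Calca was, and its KO minus WT difference was 0.00 ± 0.95. Its second probe differed by 1.77 inside each group. The receptor chaperone Fkbp5 ran the other way, at -1.64 inside WT and -0.75 inside KO (-1.66 and -0.90, and -0.35 and -0.65, on its other probes).

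Of 22 receptors, antagonists and effectors of RANKL, WNT and CGRP, 18 were tested and none passed. They had 4 positive and 14 negative fold changes and a median of -0.11. Axin2 and the calcitonin receptor gene Calcr were not well above background on any array. The RANKL receptor Tnfrsf11a, called RANK, lay lower on both KO arrays (-0.47 ± 0.24; second probe -0.72), as did the RANK effector Id2 (-0.82 ± 0.33; second probe -0.93) and Dkk3 (-0.33 ± 0.24). Rspo1, which amplifies WNT signals and is made by luminal cells, had levels of 3.90 and -0.32 in WT and 2.04 and -0.89 in KO, so it too was high on WT 1 and KO 1 (-1.21 ± 1.60 between groups). The WNT effector Tcf7, which T cells also express, differed by -2.26 inside KO; WT 2 was not well above background. The CGRP receptor genes Calcrl and Ramp1, named for their link to Calca and chosen after values were seen, differed less inside the groups than Calca: Calcrl differed by 0.67 inside WT and -0.05 inside KO, and Ramp1 by 0.04 and -0.68 (second probe 0.95 and -0.54).

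Of 20 other luminal regulators and hormone-sensing markers, all 20 were tested and none passed, with 3 positive and 17 negative fold changes and a median of -0.52. This list had the lowest median of the pathway lists. Grhl1 had the largest fold change among its genes with separate groups, with levels of 2.75 and 2.01 in WT and 1.43 and 0.83 in KO (-1.25 ± 0.38; second probe -1.56; adjusted p = 0.935). Tfap2c (-1.08 ± 0.34) and Sox9 (-0.92 ± 0.42; second probe -0.99), a factor of luminal progenitors, were lower on both KO arrays too. For Ehf, an epithelial ETS factor, the first array of each group was higher, by 1.89 in WT and 1.26 in KO (by 1.76 and 0.54, and by 1.53 and 1.27, on its other probes). Tfap2a likewise differed by 0.79 and 1.27.

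**Figure D4:**
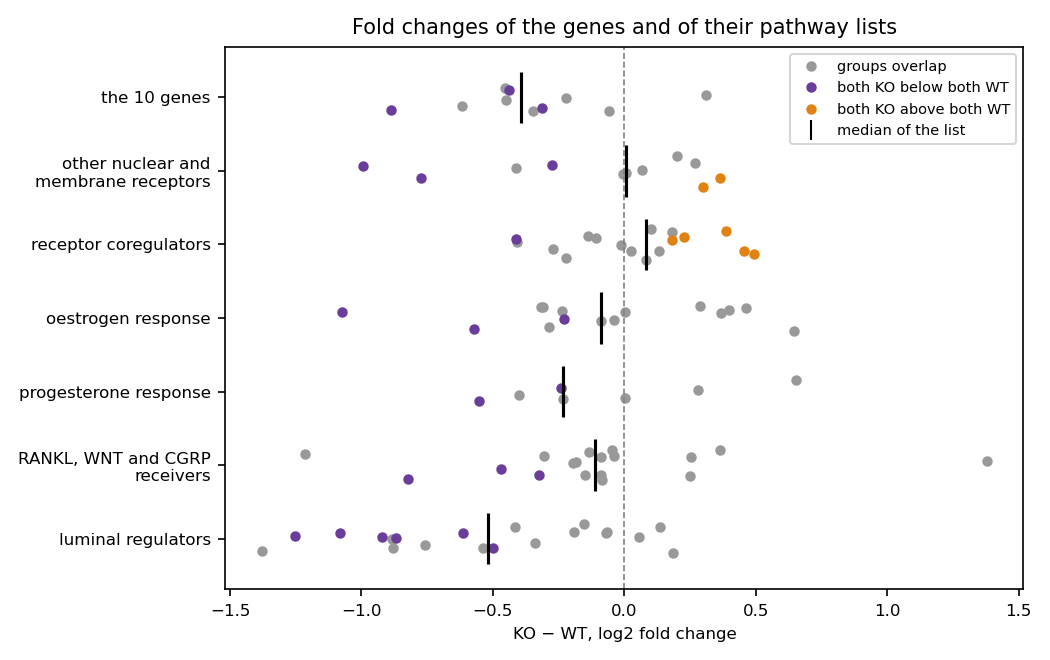
KO minus WT log2 fold change of each tested gene of the 10 genes and of 6 pathway lists; each point is a gene, colour shows whether both KO arrays lay below or above both WT arrays, and the black bar is the median of the list. The median is -0.52 for the luminal regulators and -0.39 for the 10 genes, and between -0.24 and 0.08 for the other lists; no point passed the adjusted test.

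Markers of other cell types differed between the same arrays, and are given as list means relative to the mean of the 4 arrays. In bulk tissue, fewer cells of a type and less RNA per cell cannot be told apart. The luminal epithelium list holds none of the 10 genes, and 10 of its 12 genes were tested. It was 0.06 and 0.27 in WT and 0.20 and -0.53 in KO, so KO 2 was lowest. KO 2 was also lowest for Esr1, Cited1, Foxa1 and Tbx3, and narrowly for Pgr (-3.20 against -3.18 on WT 1). Gata3 and Greb1 were lowest on KO 1, and Calca, Tnfsf11 and Wnt4 on WT 2. Milk protein genes were higher in WT (1.88 and 0.84) than in KO (-1.52 and -1.20). Fibroblast genes were 0.27 and 0.27 in WT and -0.21 and -0.33 in KO, with all 7 lower on both KO arrays, against 19% of all tested probes. Skeletal muscle genes were 0.35 and 0.20 in WT and -0.33 and -0.23 in KO. The part of these lists in the values of Gata3, Esr1 and Foxa1 was not tested.

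Lymphocyte genes were high on KO 2 alone. The summed level of the T cell list (9 of 11 genes tested; Cd4 not well above background on any array) was -0.13 and -0.06 in WT and -0.25 and 4.44 in KO, on a log2 scale. The B cell list (4 of 8 tested; Blk and Pax5 at background throughout) was -0.52 and -0.83 in WT and -0.96 and 4.50 in KO. The lymph node stroma list (3 of 5 tested, with Madcam1 at background throughout) was 1.52 and 1.69 in WT and 1.37 and 5.04 in KO. Its genes did not all rise on KO 2. Ccl19 had a level of 4.73 there, but Ltbr was lowest there (0.96 and 0.87 in WT, 0.94 and -0.35 in KO). With KO 2 left out, the difference of Gata3 was -1.11, of Esr1 -0.15, of Foxa1 -0.23 and of Greb1 -0.86, and the median over the 10 genes was -0.15. Those values set 1 KO array against the WT arrays, and the part of the lymphocyte genes in them was not tested.

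Proliferation genes split as Calca did. Their list mean (8 of 10 genes tested; Aurkb at background throughout) was 0.81 on WT 1, -0.71 on WT 2, 0.37 on KO 1 and -0.47 on KO 2. Basal and myoepithelial genes were 0.27, -0.07, 0.12 and -0.32 in the same order, the first array of each group again the higher by a smaller margin. CGRP is also made by sensory nerves. The nerve list (5 of 9 genes tested) lay between -0.16 and 0.18 on the 4 arrays. Its neuronal markers Prph and Uchl1 were at background throughout, and its brightest genes, S100b and Mbp, mark Schwann cells. Values of its other neuronal genes are not given here, so how far the list reads sensory neurons is uncertain. The part of nerves in the levels of Calca was not tested. The adipocyte list lay between -0.38 and 0.25, with WT 1 lowest. The part of proliferation in the levels of Calca and Tnfsf11 was not tested.

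**Figure D5:**
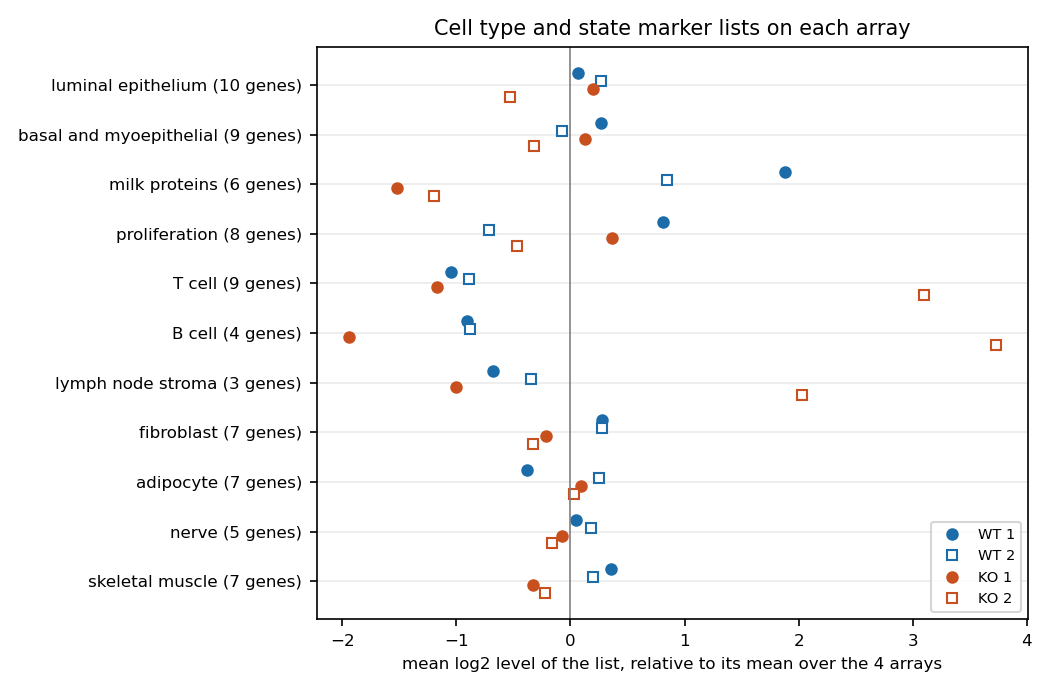
Mean log2 level of each cell type or state marker list on each array, relative to the mean of that list over the 4 arrays; filled circles are the first array and open squares the second array of each group, WT in blue and KO in orange. The T cell, B cell and lymph node lists stand out on KO 2 (3.73 for B cell and 2.03 for lymph node stroma), and the proliferation list is higher on WT 1 and KO 1 (0.81 and 0.37) than on WT 2 and KO 2 (-0.71 and -0.47).

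The labelled tissue was checked against these markers. Keratins 8 and 18 of the luminal epithelium were bright on every array (processed signals from 4027 to 11101 for Krt8), and so were the adipocyte gene Fabp4 (42146 to 48188) and the muscle gene Myh4 (24089 to 35789). The RNA thus held transcripts of fat and muscle, although the labels give the histotype as epithelial, and the luminal genes were read in that mixture.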

How the data were processed

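RNA from 4 mammary gland samples (2 WT, 2 STM KO; groups from the titles) was measured on 1 slide of one-colour Agilent arrays in 1 scan. The authors deposited scanner files with processed signal intensities. Feature Extraction made them, subtracting background within each array; the file headers give version 11.5.1.1 and the submitters' processing notes 10.7.3.1. A second deposited table, of log2 values, has its steps unstated and matched quantile-normalized log2 signals centred on each probe's median (Pearson r from 0.99988 to 0.99993 across 41174 probes, median absolute difference at most 0.0031), with its direction and centring settled from that match. Column medians were -0.0178, 0.0184, 0.00604 and -0.00977 for WT 1, WT 2, KO 1 and KO 2. It served as an alternative.

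Values were log2 processed signals relative to the 75th percentile of its array, with control and outlier-flagged spots left out and repeat spots averaged. Tested were the 24188 of 41174 probes that both arrays of 1 group or more read well above background. Accessions were matched to RefSeq names (27816 probes named, 13358 unnamed). The fit used limma (version 3.58.1, R 4.3.3; lmFit and eBayes, no covariate; adjusted p threshold 0.05), checked on simulated data. The numbers 1 and 2 of the groups were not taken as pairs, since the labels do not say what the numbers share and there are only 2 pairs. The differences inside WT and inside KO correlated at r = 0.065 over probes. A correlation over all probes cannot show that arrays of the same number share nothing. The Cfd value on WT 1 was an outlier-flagged spot, so Cfd was left out of the adipocyte mean.

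The genes and lists were chosen with earlier results of these data known. Named from each pathway list were up to 3 genes with the largest fold change among those with separate groups, and up to 2 with the largest mean difference inside groups; from marker lists, at most the 2 brightest genes. Calcrl, Ramp1 and genes at background were named outside this rule. The alternatives were the scaling (median, detected probes, quantile, other luminal genes), background correction by normexp on the median signals (no mean signal column was used), filters on dim probes, flagged spots kept, the deposited log2 table, all probes of a gene averaged, a replicate block, and each array left out. The number of arrays limits the precision.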

Additional observations from a re-analysis of the deposited data

How the results depend on the processing

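No gene of the 10 passed an adjusted p of 0.05 under any alternative run. Over all probes the count past that threshold was 0 except on the median and luminal scales. It was 6 with the median of each array as the scale (1 higher, 5 lower in KO). Relative to the luminal epithelium genes it was 39 (28 higher, 11 lower). On that luminal scale the fit gave each of the 10 genes the same SE (0.643), whatever its spread. The p-values and the 39 calls on that scale thus do not follow the spread of each probe. Of probes with an unadjusted p under 0.05, 28.4% were higher in KO in the main fit, 64.7% with median scaling, 45.6% with quantile normalization, 77.0% relative to the luminal genes, 47.5% with normexp, 45.9% in the authors' table and 12.4% with no filter. The number of such probes was 895 in the main fit and ran from 439 (luminal scale) to 2803 (without KO 2).

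The count of genes with a difference of at least 2-fold inside a group, 2 in the main values, was 4 with median scaling, 5 with quantile normalization, 4 relative to the luminal genes, 4 in the authors' table, 1 with normexp and 1 among probes well above background on all 4 arrays, where Tnfsf11 was not tested. The median fold change (-0.39) was -0.219 with median scaling, -0.063 on the luminal scale and -0.246 with normexp, and from -0.458 to -0.149 with 1 array left out. The count of genes with separate groups (3: Esr1, Foxa1 and Gata3) was 1 with median scaling (Gata3), 0 on the luminal scale and 2 with normexp (Gata3 and Wnt4). It was 3 with quantile normalization and in the authors' table (Esr1, Gata3 and Tbx3, not Foxa1). It was 2 with the median over Esr1 spots, 2 with all probes of a gene averaged and 4 with the percentile over detected probes. With 1 array left out, the count ran from 4 (without KO 2, all lower in KO) to 9 (without WT 1, 6 lower and 3 higher). A single array stands apart from 2 others more readily than a pair does. The share of all probes is not given for those comparisons, so their counts are not a result about these genes. The fold change turned positive for Esr1 (0.017) and Tbx3 (0.110) on the luminal scale and for Wnt4 on the median (0.115) and luminal (0.271) scales, and turned negative for Tnfsf11 with normexp (-0.322). With 1 array left out it ran from -3.48 to 2.57 for Calca, -1.68 to 2.31 for Tnfsf11 (the upper value against WT 2 alone, not well above background), -0.76 to 0.065 for Pgr and -0.18 to 0.060 for Wnt4, and kept its sign for the other 6 genes. The sign of Gata3 was negative in all settings run (-1.11 to -0.56), with an unadjusted p over 0.05 on the median and luminal scales and without WT 1, WT 2 or KO 1. The cause of these changes was not tested. With the replicate block Gata3 was -0.889 ± 0.281, the smallest adjusted p of the genes was 0.954, none passed, and it changed no call. The block lowered the SE of Calca from 2.45 to 0.354 and that of Tnfsf11 from 1.28 to 0.772. It also lowered the SE of Greb1 and Cited1, and raised that of Esr1, Pgr, Wnt4, Foxa1, Gata3 and Tbx3. Signals near background limit what is shown for Pgr, Greb1, Foxa1 and Tnfsf11.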
